A study of Mus musculus with 2 samples.

Results

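The nuclear genes of respiratory complex I were followed on 2 arrays of mouse embryo RNA. They were chosen by symbol: every spot whose single annotated gene symbol starts with Nduf was a member. This gave 44 of the 36227 spots and 39 genes, 32 with a subunit symbol (Ndufa, Ndufb, Ndufc, Ndufs or Ndufv) and 7 named as assembly factors (Ndufaf). The gene group as such was selected on earlier results of the same 2 arrays, so the log2 ratios that follow are a description and carry no test.

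Total RNA came from whole embryo proper at E8.5 (embryonic day 8.5), pooled within genotype from embryos matched by litter: 42 wild-type embryos and 45 mDom-/- embryos. mDom-/- embryos are homozygous for a mutation of mDom, also called p400 (present symbol Ep400), the ATPase of the TIP60/p400 chromatin-remodelling complex. The sources used here give no strain, no treatment and no description of the allele. One array was hybridised per pool, so no value has a replicate error, embryos and litters within a pool cannot be told apart, and fewer cells of a type cannot be told apart from less RNA per cell. The question set by the design is which transcripts differ between the genotypes.

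Complex I (NADH:ubiquinone oxidoreductase) is the entry point of the mitochondrial respiratory chain. Its matrix arm takes electrons from NADH through a flavin and a row of iron-sulfur clusters to ubiquinone, and its membrane arm pumps protons. A set of core subunits carries out the chemistry, some encoded in the nucleus and some in mitochondrial DNA. Many small supernumerary subunits surround the core, and assembly factors help to build the complex without staying in it. Embryos at this stage draw much of their ATP from glycolysis while mitochondria mature, and the heart is among the first tissues to depend on respiration.

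Intensities are multiples of the median of the array (array medians). Values below a floor of 0.541, set at the 40th percentile of whichever array had the larger one, were raised to it, and a gene was compared when at least 1 array lay above the floor. The log2 ratio is mDom-/- minus wild-type. Of 39 member genes, 38 were compared: all 32 subunits, each above the floor on both arrays, and 6 of the 7 assembly factors. The only repeated measurement was the pair of spots that some genes have. Over 1302 genes with 2 spots above the floor on both arrays, the SD of a single log2 ratio derived from such pairs was 0.25, and over the 158 genes with both spots in the 3 brightest of 10 equal groups (deciles) of compared genes it was 0.15, or 0.11 when estimated from the median absolute difference. These SDs come from spots on the same 2 arrays, so they cover only differences between spots of a gene. Error that both spots share, such as that of a whole array, and the spread between pools are left out.

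Ep400 gave no check of the labels, since its 2 spots were below the floor on both arrays, at 0.215 and 0.470 in wild-type and -0.029 and 0.071 in mDom-/-. The labelled tissue was checked against markers. Heart muscle genes were present on both arrays (Myl7, the atrial light chain, at 354 and 375 array medians), as were visceral endoderm genes (Apoa1 at 202 and 184), and of the 4 trophoblast genes listed only Psg17 was compared, at 1.26 and 1.04.

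Subunit genes read slightly higher in the mDom-/- pool. Of the 32 subunits, 28 had a log2 ratio above 0 (87.5%), against 49.5% of the 13137 compared genes, and the median ratio was 0.15 against -0.0036 for all compared genes. The sizes were small. At least 1.2-fold higher were 7 subunits (Ndufb2, Ndufa6, Ndufa11, Ndufv2, Ndufb4, Ndufa7 and Ndufb3), where 16.0% of all compared genes were, and at least 1.2-fold lower were 2 (Ndufs3 and Ndufs1), where 18.0% of all compared genes were. Of the 37 members above the floor on both arrays none was 2-fold apart, a size reached by 0.845% of all compared genes in the higher and 0.929% in the lower direction. The assembly factor Ndufaf5 has only a lower bound, described with its spots. With quantile normalization and with loess on brightness the subunit median was 0.073 and 0.075, and 26 and 24 of the 32 subunits were above 0. Ndufv2 and Ndufa7 were under 1.2-fold with both, and Ndufb4 with quantile normalization.

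Most subunit spots were bright, and the brightest genes on the arrays had ratios above the rest. Of the 32 subunits, 23 lay in the brightest decile of compared genes. In that decile 63.0% of the 1290 other genes were above 0, with a median of 0.057. The medians of the other deciles lay between -0.031 and 0.018. They rose at each step from the 5th decile of brightness, at -0.031, to the brightest. Of the subunits in the brightest decile, 22 of 23 were above 0, with a median of 0.17. At least 1.2-fold higher were 13.0% of these other genes and 5 of the 23 subunits, and at least 1.2-fold lower were 4.26% of the other genes and 0 of the subunits. The 9 subunits below that decile had a median of 0.076, with 6 above 0.

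After the median of the other genes in its own decile was taken from each ratio, the subunit median was 0.11 and 25 of 32 lay above their decile. By that measure 6 subunits were at least 1.2-fold above it, where 16.2% of all compared genes were, and 1, Ndufs3, was at least 1.2-fold below it, where 17.6% were. A comparison with the 200 genes nearest in brightness was added after the data had been seen. By it the subunit median was 0.098 and 24 of 32 were above. Among subunits of the brightest decile, the median of those 200 genes ran from -0.014 (Ndufa11) to 0.13 (Ndufv2). With 1 pool per genotype, no error can be given for these medians.

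**Figure D1:**
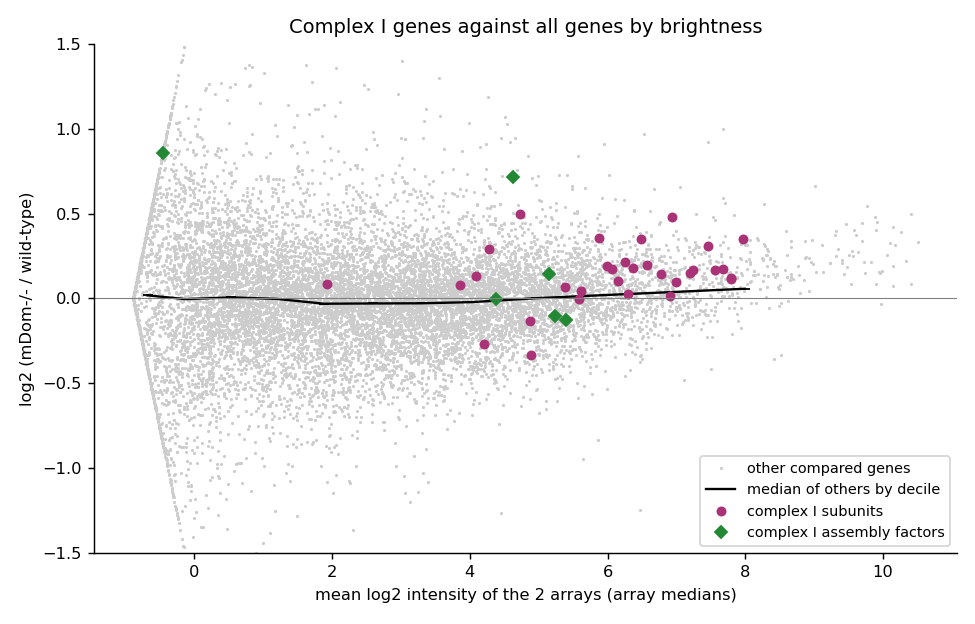
Log2 ratio against mean log2 intensity for all 13137 compared genes (grey, axis cut at 1.5 either way), complex I subunits (circles) and assembly factors (diamonds); the black line joins the medians of the other genes in deciles of brightness. The line ends at 0.057, the median of the brightest decile, and 19 of the 23 subunits in that decile have a ratio above 0.057.

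The core subunits did not share a direction. Of the 6 nuclear core genes compared, 4 were above 0. Ndufv2, which carries an iron-sulfur cluster at the NADH end of the matrix arm, read 221 array medians in wild-type and 282 in mDom-/-, 1.28-fold higher and the highest ratio of the core. Its partner Ndufv1, which binds NADH and the flavin, read 40.9 and 42.8, a log2 ratio of 0.065. The log2 ratio of Ndufv2, 0.35 as reported, was 0.22 with loess and 0.23 with quantile normalization, both under the 0.26 that 1.2-fold makes on this scale.

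Ndufs7 and Ndufs8, the iron-sulfur subunits that hand electrons on to ubiquinone, had close ratios of 0.22 and 0.19. Ndufs7 read 70.4 and 81.8 array medians and Ndufs8 read 59.6 and 68.1. Ndufs1, the large subunit that holds iron-sulfur clusters at the NADH end, went the other way, with 20.2 in wild-type and 16.8 in mDom-/-, a log2 ratio of -0.27. This was -0.25 with loess and -0.26 with quantile normalization, just short of 1.2-fold. Ndufs3, a scaffold of the ubiquinone-binding part, was the lowest of all members, at 33.4 and 26.5, 1.26-fold lower. Its second spot, dimmer, read 10.8 and 10.6 with a log2 ratio of -0.025, so its spots disagreed, and their mean ratio was -0.18. The lower value of Ndufs3 thus rests on 1 spot, and that of Ndufs1 on its only spot.

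Among the other matrix arm subunits, Ndufa6 was the highest. Ndufa6, a small protein that seats the acyl carrier protein Ndufab1 on the matrix arm, read 103 array medians in wild-type and 144 in mDom-/-, 1.39-fold higher. Ndufa7 read 159 and 197, 1.24-fold higher, and its log2 ratio of 0.31 was 0.21 with loess and with quantile normalization, under the rule. Ndufa2, Ndufs4 and Ndufs6, accessory subunits at the NADH end of the arm, had ratios between 0.17 and 0.18, and Ndufa12, which sits where the NADH end joins the rest, had 0.11. The values of these genes depended on the normalization. With loess Ndufa2 had 0.059, Ndufs6 0.057, Ndufs4 0.14 and Ndufa12 -0.0089, and with quantile normalization they had 0.060, 0.052, 0.15 and 0.011. Ndufa12 read 212 and 230 at its bright spot, and its second spot was near the floor, at 0.463 and 0.605. Ndufa9 was near 0, with 77.8 and 79.4 (0.029, and -0.084 with quantile normalization), and Ndufa5, a subunit of the ubiquinone-binding part, was lower with 30.6 and 28.0, a log2 ratio of -0.13. Over the 14 compared matrix arm genes the median was 0.17, with 11 above 0, and 3 passed the 1.2-fold rule upward and 2 downward, where 16.0% and 18.0% of all compared genes did. With loess and with quantile normalization 1 passed in each direction. All 3 matrix arm genes below 0, Ndufs3, Ndufs1 and Ndufa5, were among the less bright spots of the arm, outside the brightest decile.

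The membrane arm genes were mostly a little higher in the mDom-/- pool. Of 15 compared genes 14 were above 0, with a median of 0.15, and 4 passed the 1.2-fold rule upward and 0 downward, where 16.0% and 18.0% of all compared genes did. With loess 12 were above 0. Ndufb2, a small subunit of the distal part of the arm, had the highest ratio of all subunits, at 22.3 array medians in wild-type and 31.4 in mDom-/-, 1.41-fold higher. Ndufa11, a subunit of the arm that spans the inner membrane, read 52.0 and 66.7, 1.28-fold higher. Ndufb4 read 79.4 and 101, 1.27-fold higher, with a log2 ratio of 0.35 that was 0.21 with quantile normalization. Ndufb3 read 17.5 and 21.5, 1.22-fold higher. All 7 genes with an Ndufb symbol were above 0, from 0.096 (Ndufb11) to 0.50 (Ndufb2), with a median of 0.18. Of all compared genes 49.5% were above 0, and of those outside complex I in the brightest decile 63.0%.

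At the other end of the membrane arm list, Ndufc2 was level at 48.2 and 48.0 array medians, and Ndufa1 and Ndufa10 had ratios of 0.012 and 0.041. Ndufa1, an X-linked subunit needed for assembly, read 119 and 120, and its ratio was -0.061 with loess. Ndufa13, also known as GRIM-19, read 212 and 231, with a ratio of 0.12 that became -0.00048 with loess. Ndufa3, Ndufa8, Ndufb5, Ndufb7, Ndufb9 and Ndufc1 lay between 0.13 and 0.20, of which Ndufa8 and Ndufb5 fell to 0.057 and 0.033 with quantile normalization. The ratios of the membrane arm and of the matrix arm overlapped over most of their range. After the median of the decile was taken off, the median was 0.11 in both arms, with 12 of 15 membrane arm and 10 of 14 matrix arm genes above it, and the difference between the arms was not tested.

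**Figure D2:**
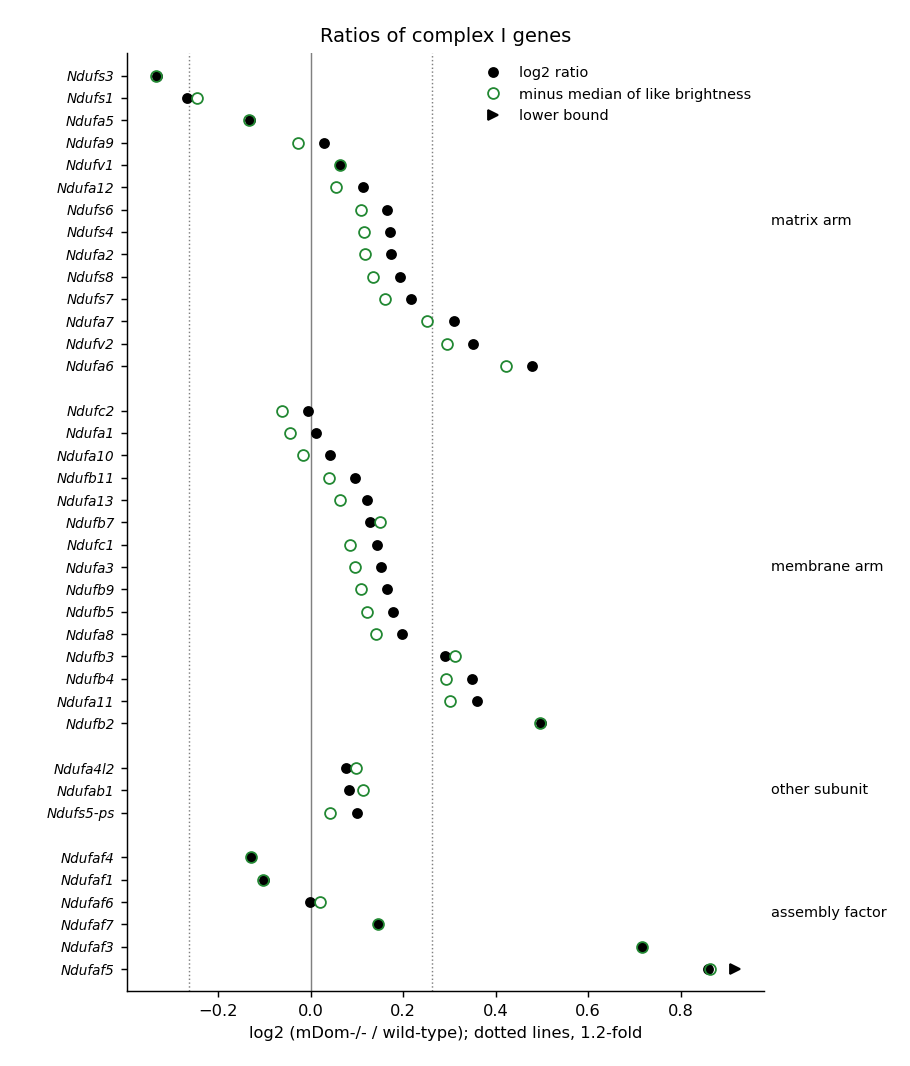
Log2 ratio of mDom-/- over wild-type for each compared complex I gene (filled) and the same ratio minus the median of the other genes in its decile of brightness (open), with 1.2-fold marked by dotted lines and a bound by an arrow. Filled points reach from -0.33 (Ndufs3) to 0.50 (Ndufb2) among subunits, and the assembly factors Ndufaf3 and Ndufaf5 lie farther right than any subunit.

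A few further symbols belong to the subunits by name only or in part. Ndufab1, the mitochondrial acyl carrier protein that sits in both arms, had 2 spots with close ratios, 0.083 at 3.68 and 3.90 array medians and 0.12 at 1.81 and 1.97. Ndufa4l2, a paralogue of Ndufa4 known to be induced by low oxygen, read 14.2 and 14.9, a ratio of 0.076. Ndufs5-ps is a transcribed pseudogene. Its spot read 68.8 and 73.7, a ratio of 0.10. Ndufs5 had no spot of its own, and no spot sequence was at hand. Signal from this parent gene therefore cannot be told apart from that of the pseudogene. Without Ndufa4l2 and the pseudogene the subunit median was 0.16.

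Assembly factors did not move as 1 group. Of 6 compared, 3 were above 0 and 3 below, where 49.5% of all compared genes were above 0. With loess, quantile normalization or 75th percentile scaling 4 were above 0. The median was 0.073 as reported, and -0.00096 over the 5 measured above the floor on both arrays. Ndufaf3 stood out. Ndufaf3, which with Ndufaf4 helps to build the ubiquinone-binding part, read 19.4 array medians in wild-type and 31.8 in mDom-/-, 1.64-fold higher. Over the settings tried its log2 ratio stayed between 0.72 and 0.74, and it rests on 1 spot. Its partner Ndufaf4 went the other way, with 44.2 and 40.4, a ratio of -0.13. Ndufaf1, a factor for the membrane arm, was also lower, with 39.0 and 36.4 (-0.10), and Ndufaf6, needed for an early step, was level at 20.9 on both arrays.

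Ndufaf7, a methyltransferase of the assembly pathway, had 2 spots that disagreed in sign. The brighter read 33.7 and 37.3 array medians, a ratio of 0.15, and the dimmer 8.35 and 7.83, a ratio of -0.092. Ndufaf5, an enzyme that hydroxylates the core subunit Ndufs7, could hardly be read. Its bright spot had 44.1 in wild-type and no value on the mDom-/- array, where the file holds the code for a missing value. Its dim spot went from 0.208, below the floor, to 0.980, which gives at least 1.81-fold higher and was not compared with the 60th percentile floor. Ndufaf8, a partner of Ndufaf5, was below the floor on both arrays (0.328 and 0.347) and was not compared. A difference in Ndufaf5 therefore rests on a spot close to the floor, and the assembly factor median changed with that spot and with the spots of Ndufaf7: it was -0.00096 when every spot was counted by itself and 0.013 with the mean over spots, settings in which Ndufaf5 was kept.

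The transcription factors NRF1, GABP and YY1 are known to bind promoters of many nuclear genes of mitochondrial proteins, so the RefSeq promoter windows of the members (GRCm38.p6, 250 bases before to 50 bases after the start, 300 in all) were searched for 8-letter cores on both strands. Windows were found for 32 of the 38 compared members. The NRF1 core GCGCATGC (reverse GCATGCGC) was in 5 of the 32 (15.6%), against 2.71% of all 32851 windows of the same length. The YY1 core AAGATGGC (reverse GCCATCTT) was in 6 of them (18.8%), against 2.75% of all windows, and each match lay after the start (Ndufa3, Ndufa9, Ndufc1, Ndufs4, Ndufs6 and Ndufs7). The ETS core CCGGAAGT (reverse ACTTCCGG), which GABP binds, was in 1 (3.12%, Ndufs3), against 3.89% of all windows. Members were counted by gene and the background by window, so these percentages differ in unit. The NRF1 core is its own reverse complement when extended to 10 letters, so matches on both strands overlap in Ndufa11, Ndufaf4 and Ndufaf5.

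The 150 bases before the start are shown for the 4 members with an NRF1 core there, since they include Ndufa6 and Ndufa11, among the highest subunits, and Ndufaf4, which was lower. Capitals mark the core, and each is written 5′ to 3′ on the strand of its gene, from RefSeq, GRCm38.p6.
Ndufa6, chr15:82354292-82354441, minus strand: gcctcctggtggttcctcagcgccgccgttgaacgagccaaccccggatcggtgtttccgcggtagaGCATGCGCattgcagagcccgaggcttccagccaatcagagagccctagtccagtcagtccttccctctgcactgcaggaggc
Ndufa11, chr17:56717612-56717761, plus strand: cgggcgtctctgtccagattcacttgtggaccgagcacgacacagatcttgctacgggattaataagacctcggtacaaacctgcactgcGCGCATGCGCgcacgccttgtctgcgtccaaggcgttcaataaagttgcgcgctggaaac
Ndufa8, chr2:36049339-36049488, minus strand: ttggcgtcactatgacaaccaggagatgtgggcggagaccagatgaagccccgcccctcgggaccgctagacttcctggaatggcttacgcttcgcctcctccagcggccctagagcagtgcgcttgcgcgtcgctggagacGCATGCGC
Ndufaf4, chr4:24897933-24898082, plus strand: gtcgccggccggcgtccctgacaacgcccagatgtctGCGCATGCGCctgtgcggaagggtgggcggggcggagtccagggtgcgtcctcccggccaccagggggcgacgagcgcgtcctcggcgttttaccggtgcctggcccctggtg

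The 5 members with the NRF1 core did not share a size or a sign. Their log2 ratios were 0.48 (Ndufa6), 0.36 (Ndufa11), 0.20 (Ndufa8), -0.13 (Ndufaf4) and a bound of 0.86 (Ndufaf5, whose match lies after the start). The median was 0.36, against 0.14 for the 27 members without it. The 6 genes with the YY1 core had a median of 0.16, against 0.14 for the 26 without. These are letter matches, with no binding measured here.

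Genes that act on complex I under other names had no common direction. Of 13 listed assembly factors outside the Nduf names, 9 were compared, with a median of -0.0035 and 4 above 0, and a median of 0.019 with 75th percentile scaling. Tmem126a was the highest (59.1 and 73.8 array medians, 1.25-fold higher). Acad9, which works with Ndufaf1, was the lowest (23.2 and 20.0, a ratio of -0.21), followed by Tmem186 (-0.13) and Foxred1 (-0.12). The subunits encoded in mitochondrial DNA had no spot with a symbol of its own.

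Regulators of mitochondrial gene expression were mixed. Of 15 listed, 13 were compared, with a median of 0.020. The 1.2-fold rule was passed by 4 upward and 1 downward, where 16.0% and 18.0% of all compared genes did. With loess and with quantile normalization 3 passed upward. Nrf1, the gene of the factor NRF1 named above, read 1.22 and 1.52 array medians, 1.24-fold higher from a dim spot. The genes of the other factors named above had log2 ratios of -0.10 (Gabpa), -0.14 (Gabpb1) and 0.014 (Yy1). Tfam, which packages mitochondrial DNA and was named after its value was seen, read 66.5 and 81.3, 1.22-fold higher. The coactivator gene Ppargc1b (2.23 and 3.20, 1.44-fold higher) and the receptor gene Esrra (2.69 and 3.84, 1.43-fold higher) were higher from dim spots. Tfb2m, a mitochondrial transcription factor, was lower (6.56 and 4.81, a ratio of -0.45).

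One mitochondrial list, that of import and mass, lay mostly below 0. Of 16 genes of mitochondrial import and mass, 11 were below 0, where 6638 of the 13137 compared genes were. The median of the 16 was -0.063, and -0.10 after the median of their decile was taken off. At least 1.2-fold higher was 1 and at least 1.2-fold lower were 2, where 16.0% and 18.0% of all compared genes were. Hspd1, the mitochondrial chaperonin, was the lowest (93.1 and 69.5, 1.34-fold lower), followed by the import receptor Tomm70a (110 and 89.6, 1.22-fold lower), while Tomm20, also an import receptor, was the highest (228 and 285, 1.25-fold higher). Families most like complex I also had medians above 0. Of the genes outside complex I in the brightest decile, 63.0% were above 0. The 42 compared genes of complexes II to V had a median of 0.13 with 33 above 0 (78.6%), the 72 genes of mitochondrial ribosomal proteins 0.070 with 47 above 0 (65.3%), and the 54 genes of cytosolic ribosomal proteins, which are brighter, 0.25 with 52 above 0 (96.3%). After the median of the decile was taken off, these were 0.088, 0.058 and 0.20, beside 0.11 for the complex I subunits. With loess and with quantile normalization the medians before that step were 0.044 and 0.048 for complexes II to V, 0.063 and 0.054 for mitochondrial ribosomal proteins, and 0.062 and 0.018 for cytosolic ribosomal proteins. Above 0 with loess and with quantile normalization were 26 and 26 genes of complexes II to V. For mitochondrial ribosomal proteins these were 47 and 44, and for cytosolic ribosomal proteins 36 and 29. The cytosolic ribosomal genes had a median mean log2 intensity of 9.47, against 6.31 for the genes outside complex I in the brightest decile. The decile median was therefore not one of like brightness for most of them. No difference between the families was tested.

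**Figure D3:**
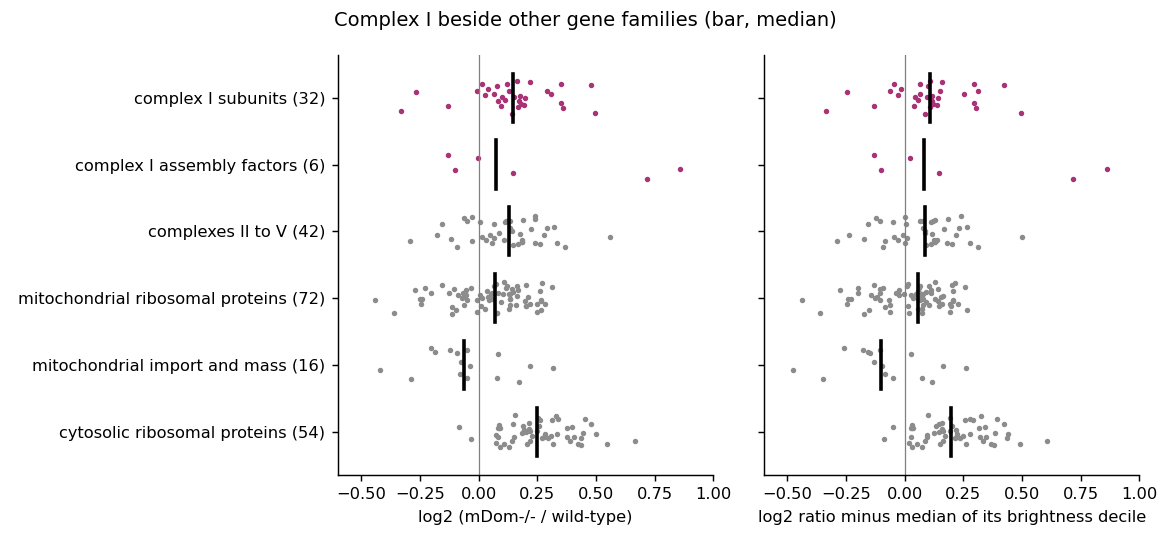
Log2 ratio of each compared gene (left) and the same minus the median of its decile of brightness (right) for complex I and the other families, with the number of genes in brackets and a bar at the median. The subunit medians (0.15 left, 0.11 right) lie next to those of complexes II to V (0.13 and 0.088), and the import list lies below 0 in both panels.

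Most heart muscle, red cell and endothelial markers were lower in the mDom-/- pool. Of 10 compared heart muscle genes 8 were below 0, with a median of -0.77 and a summed level of 675 array medians in wild-type and 605 in mDom-/-. Myl7, the transcription factor gene Nkx2-5 and the troponin gene Tnnt2 were nearly level (0.080, 0.039 and -0.061). All 8 red cell genes were below 0, with a summed level of 352 and 39.9, most of it Hbb-y and Hba-x, the embryonic globins, and 4 of the 8 lay below the floor on the mDom-/- array, while Rhag was level (-0.012) and above 0 with loess, quantile normalization and 75th percentile scaling. All 5 compared endothelial genes were below 0, with sums of 49.0 and 36.9. The 6 compared visceral endoderm genes had a median of -0.15, 2 above 0, and sums of 438 and 495. The part of these tissue differences in the complex I ratios was not tested.

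**Figure D4:**
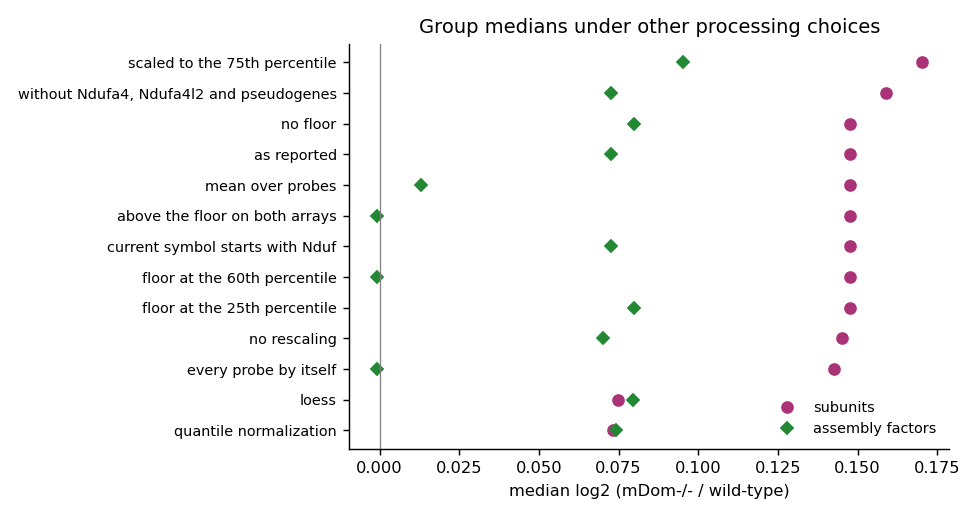
Median log2 ratio of the subunits (circles) and of the assembly factors (diamonds) under each processing choice. The subunit medians stay above 0, from 0.073 to 0.17, while those of the assembly factors reach -0.00096 where Ndufaf5 drops out or every spot is counted by itself.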

How the data were processed

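RNA of 1 pool per genotype was measured on 1-colour oligonucleotide arrays (CodeLink Expression Bioarray system, biotin-UTP labelling), per the labels. The deposited values are spot intensities on a linear scale, from images analysed with CodeLink System Software, per the labels. The sources used here do not state the software version, background correction or scaling. Both deposited columns had a median of 1.05, and no label says whether they were scaled before deposit. A negative missing-value code was read as no value (105 wild-type and 106 mDom-/- spots). Groups came from the sample titles.

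Each array was divided by its median, floored at the 40th percentile (59.7% and 60.0% of spots lay above the floor) and put on the log2 scale with Python 3.11.15. A gene took its spot of highest mean log2 intensity. Spots with 1 gene symbol (21615) were used and 681 with several were not. Of the former, 21487 had a current symbol in RefSeq GRCm38.p6. With 1 array per group there is no test, and precision is limited by the number of arrays. Size rules of 1.2-fold and 2-fold stand in for calls. Likeness of brightness was set by 10 equal groups of mean log2 intensity. The calculation was tested on simulated data. Members and lists were chosen with earlier results of these data known.

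Named were members, with both arrays' values for the core, the assembly factors, those farthest from 0 and those with 2 spots. Of each list up to 4 genes were named, and more of the list of regulators. Alternatives covered scaling, loess (span 0.3), floors, the filter, the rule for spots, the membership and a 1.5-fold rule.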

Additional observations from a re-analysis of the deposited data

How the results depend on the processing

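The median log2 ratio of the subunits stayed above 0 in every setting tried, from 0.073 (quantile normalization) to 0.17 (75th percentile scaling), and minus the median of like brightness from 0.083 (loess) to 0.12. The assembly factor median, 0.073 as reported, was -0.00096 with only genes above the floor on both arrays, with the 60th percentile floor and with every spot by itself. Minus the median of like brightness it was -0.00052 with the 60th percentile floor and -0.0048 with every spot by itself. With the 60th percentile floor, and again with that filter, Ndufaf5 was not compared, which left 1 assembly factor at least 1.2-fold higher in place of 2. The 7 subunits at least 1.2-fold higher were 5 with loess, 4 with quantile normalization and 0 at 1.5-fold. The 2 at least 1.2-fold lower were 1 with quantile normalization, loess, 75th percentile scaling or the mean over spots, and 0 at 1.5-fold. Ndufv2 and Ndufa7 fell under the 1.2-fold rule with loess and with quantile normalization, and Ndufb4 with quantile normalization. Ndufs1 had -0.25 with loess, -0.26 with quantile normalization and -0.25 with 75th percentile scaling, just short of 1.2-fold. The mean over spots takes in the second spot of Ndufs3. Why the scalings moved these ratios was not tested. Of 38 members, the log2 ratio moved by over 0.1 in 9 with quantile normalization, in 6 with loess and in 2 with the mean over spots (Ndufs3 and Ndufaf7). The floors, the filter and the membership leave the ratio of a bright gene with 1 spot as it was by construction, so they say nothing about its stability. No paired analysis was possible because each group has 1 array. No scaling moved the median of all genes by over 0.1. Ratios of dim spots such as that of Ndufaf5 are limited by the floor: its log2 ratio ran from 0.85 to 2.24.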

Other observations

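Of the spots annotated to several genes, 4 included a symbol starting with Nduf and were left out above, since their signal cannot be given to 1 gene. The spot shared by Ndufb8, A830049F12Rik and Rnf4 read 120 array medians in wild-type and 160.5 in mDom-/-, a log2 ratio of 0.42. That of Ndufc2 with Snora44 and Snhg12 read 310.5 and 341 (0.13), while the spot of Ndufc2 alone had -0.0059. The spot of Ndufa4 and Zfp593 read 218 and 226 (0.050), and that of Ndufv3 and Eps8l2 read 74.4 and 76.8 (0.046). All 4 were above 0 on the log2 scale, as were 63.0% of the genes outside complex I in the brightest decile. The ratios of 0.050 and 0.046 were below the median of those genes, 0.057.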
